A study of Mus musculus with 9 samples.

Results

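The adult mouse cornea was compared with an adult limb tendon on 5 oligonucleotide arrays, 3 of cornea and 2 of tendon, out of 9 arrays in the whole study. The arrays were taken by their titles, and all 12422 probe sets other than the manufacturer's controls entered the comparison. The corneas came from mice 7 weeks old. They had been cut free of the limbus, the rim where cornea meets sclera, and much of the epithelium had been scraped away, which enriched the RNA for stroma but left an epithelial share. The tendon was the flexor digitorum longus, the long flexor of the toes, from mice of the same age, and its RNA came from pooled tendons. Each array held a separate RNA preparation, so the p-values below measure the spread between preparations. Strain and sex are not given in the sources used here. The remaining 4 arrays held lens and 10-day-old cornea and entered the fit only for the estimate of the spread. The cornea arrays had already been used in a study of cultured stromal cells, so a batch and the tissue cannot be told apart in any difference below.

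Cornea and tendon are both dense connective tissues built mainly of collagen I, and the study set them side by side to see what the transparent tissue has that the opaque one lacks. In the corneal stroma, cells called keratocytes lay down thin, evenly spaced fibrils in stacked sheets, and this regular order lets light pass. Tendon cells build thick fibrils in parallel bundles that carry load from muscle to bone. Small leucine-rich proteoglycans sit on the fibrils and limit how they fuse, collagens III, V and XI are built into them, and lysyl oxidase crosslinks them. The corneal surface carries a layered epithelium marked by keratin 12 and the eye transcription factor Pax6, and corneal cells store large amounts of soluble enzymes, the corneal crystallins, among them aldehyde dehydrogenase 3A1 and transketolase.

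Values are the deposited expression index of a probe set, in arbitrary units, listed in the order of the replicates, with the 3 cornea arrays first. A difference is cornea minus tendon in mean log2(index + 16), with values below 0 set to 0, and is given with its standard error (SE). A fold is that difference on the linear scale and understates the difference of weakly expressed genes. No fold is given where an array of the lower group read at or below 0. A probe set is called when its p-value, adjusted over all 12422 by Benjamini-Hochberg in limma's moderated test, is under 0.05. Where several probe sets name 1 gene, the one brightest on average over the 9 arrays stands for it. Calls on named genes held in each of 18 other fits that tested the gene, unless an exception is given.

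By this test 1443 probe sets (11.6%) were higher in the cornea and 1807 (14.5%) were lower. Of all probe sets, 926 (7.45%) were called at least 2-fold higher and 1166 (9.39%) at least 2-fold lower, and the counts at 10-fold were 95 and 144. Counted by gene, 1061 of 8251 genes (12.9%) were higher and 1282 (15.5%) lower, which is the background for the gene lists below. The values of the groups did not overlap for 50.4% of all probe sets, so that a lack of overlap by itself was common. With tendon replicate 1 left out, 647 probe sets were higher and 1092 lower, and with tendon replicate 2 left out, 754 and 1023. Of the 3250 calls, 1484 held in all 9 fits that each left out 1 array.

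Over all probe sets, which are not independent of each other, log2 values of the tendon arrays correlated at r = 0.98 and those of the cornea arrays at r = 0.907 to 0.948. Cornea and tendon arrays correlated at r = 0.721 to 0.735. Cornea replicate 1 stood apart in RNA quality: its 3'/5' signal ratio was 2.25 for Gapdh and 4.69 for actin, where the other 8 arrays lay at 0.831 to 1.04 and at 1.07 to 2.07. Cornea replicates 2 and 3 also lay above both tendon arrays. Their actin ratio was 1.65 and 1.92 against 1.12 and 1.07 in tendon, and their Gapdh ratio 0.931 and 1.04 against 0.838 and 0.844. This ratio thus differed with the tissue, and its part in the differences was not tested. The part of cornea replicate 1 was not tested beyond the fits without it, which gave 1101 higher and 1513 lower probe sets.

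**Figure D1:**
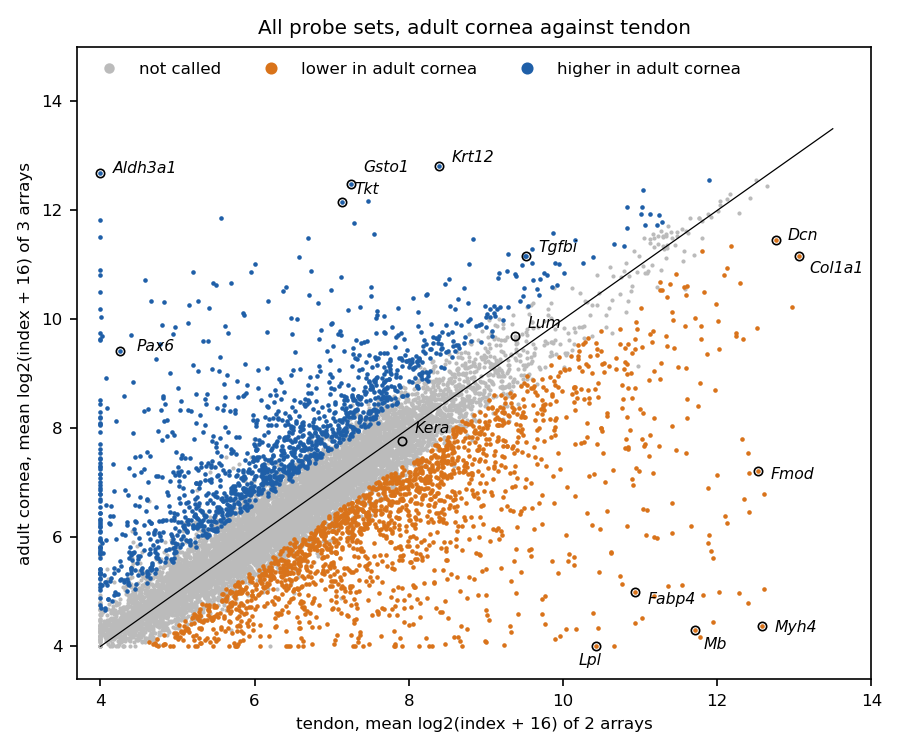
Mean log2(index + 16) of each of the 12422 probe sets, with the 2 tendon arrays on the horizontal axis and the 3 adult cornea arrays on the vertical axis; blue and orange mark probe sets called higher and lower in cornea, grey the rest, and the line marks equal values. Aldh3a1, Krt12 and Pax6 lie far above the line, Fmod, Myh4 and Fabp4 far below it, and Kera and Lum beside it.

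Among genes read above 0 in both tissues, the largest rises in cornea included surface and detoxification genes, and the largest falls were of muscle genes. In bulk tissue, fewer cells of a type and less RNA per cell cannot be told apart. The 10 probe sets with the largest rise in cornea were those of Gsta4, Adh1, Cryaa, Slurp1, Dsc2, Gsto1, Psca, Pax6, Sfn and Cyp4a12b. Adh1, an alcohol dehydrogenase, read 1559, 1813 and 1677 on the cornea arrays and 6.36 and 9.61 on the tendon arrays. This was 70.9-fold higher in cornea (log2 difference 6.15 ± 0.38, adjusted p = 8.64e-07). Cyp4a12b, a cytochrome P450 of fatty acid hydroxylation, read 776, 1178 and 893 against 11.4 and 12.5 (34.0-fold higher, adjusted p = 1.70e-07), and close paralogs of it exist, so the reading may be shared among them. The 10 probe sets with the largest fall were all of muscle genes: Myh4, Mylpf, Tnnt3, Myl2, Atp2a1, Myh7, Ckm, Pygm, Myh1 and Tnnc2. Atp2a1 ranked here by its dimmer probe set, which was 158-fold lower, where its brighter one was 56.3-fold lower.

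The small leucine-rich proteoglycans divided into those lower in cornea and those not called. Of 9 measured members, 7 were lower in cornea and 2 were not called, with a median log2 difference of -1.91 against 0.00 over all genes. Kera and Lum, which encode the keratan sulfate proteoglycans keratocan and lumican of the stroma, were the uncalled pair. Kera read 311, 183 and 144 on the cornea arrays and 213 and 236 on the tendon arrays. The tendon values lay within the corneal range (log2 difference -0.14 ± 0.29, adjusted p = 0.787). Its difference changed sign, to 0.09, without cornea replicate 3. Lum read 1156, 783 and 595 in cornea and 631 and 668 in tendon, where cornea replicate 3 lay below both tendon arrays (0.32 ± 0.27, adjusted p = 0.438). Neither gene passed the test in any of the 18 other fits.

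Fmod, which encodes fibromodulin, the proteoglycan that guides fibril assembly in tendon, gave one of the largest matrix differences. It read 123, 177 and 106 in cornea and 5455 and 6342 in tendon. Every tendon value was far above every corneal value (39.7-fold lower in cornea, log2 difference -5.31 ± 0.45, adjusted p = 9.82e-06). A second Fmod probe set read 3.17 to 10.6 in cornea and 13.6 and 16.5 in tendon and was not called. Chad, which encodes chondroadherin, a cell-binding protein of cartilage and tendon, read 54.6, 83.3 and 83.8 against 5239 and 5617. It was 61.3-fold lower in cornea (-5.94 ± 0.20, adjusted p = 2.11e-08). Ogn is the osteoglycin or mimecan gene, whose protein occurs in cornea as a keratan sulfate proteoglycan. It read 115, 69.8 and 95.3 against 1045 and 1208 (10.6-fold lower, adjusted p = 4.83e-06). Bgn, the biglycan gene, read 569, 724 and 449.7 against 2706 and 2235, and its values also stood apart (4.22-fold lower, adjusted p = 4.38e-05). Dcn, which encodes decorin, an abundant proteoglycan of both tissues, was lower by less. It read 2989.9, 2484 and 2922 in cornea and 6588 and 7248 in tendon (2.47-fold lower, adjusted p = 0.000684). The 2 called members left, Omd and Epyc, had low readings in both tissues, with cornea values of 8.36 or less and tendon values of 22.5 to 69.0. Prelp could not be described, for lack of a probe set of its own.

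Among 17 fibrillar and fibril-associated collagens, 10 were lower in cornea and 1 was higher (median log2 difference -1.03), and without tendon replicate 2 the count of lower genes was 6. The chains of collagen I, the main protein of both tissues, were lower in cornea. Col1a1 read 2284, 2315 and 2239.7 in cornea and 8130.2 and 8924 in tendon, and no values overlapped (3.72-fold lower, -1.89 ± 0.15, adjusted p = 6.85e-06). Col1a2 read 1203, 1404 and 975 against 7758 and 8277 (6.71-fold lower, adjusted p = 0.000204, but 0.100 with a pseudocount of 1). A second probe set of Col1a2 read 143 to 186 on all 5 arrays and was not called.

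The collagens that are built into collagen I fibrils did not move together. Col3a1, a collagen of distensible tissues, was the most tendon-biased, with 75.8, 157 and 91.6 in cornea and 3615 and 3898 in tendon (31.5-fold lower, adjusted p = 4.35e-07). Its 3 probe sets were all called lower. Col5a2, a chain of the fibril-nucleating collagen V, read 381, 214 and 171 against 1422 and 1431 (5.60-fold lower, adjusted p = 9.33e-05). Col5a1, which encodes the partner chain, read 245, 192 and 123 against 305 and 323. The tendon values were above all corneal ones, but the difference did not pass (log2 -0.75 ± 0.27, adjusted p = 0.0646). It passed after quantile normalization and without cornea replicate 1 (adjusted p = 0.0474 and 0.0300). Col12a1, a collagen that coats fibrils, was likewise not called, at 129, 138 and 197 against 199 and 198 (-0.35 ± 0.24, adjusted p = 0.330).

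The chains of collagen XI differed in opposite directions. Col11a1 read 28.9, 14.1 and 17.5 in cornea and 268 and 286 in tendon (8.20-fold lower, adjusted p = 6.22e-06). Col11a2 was the 1 collagen of the list that was higher in cornea, at 541, 677 and 645 against -44.7 and 121. The tendon arrays disagreed on it, 1 of them below 0, and both lay under every corneal value (higher in cornea, adjusted p = 0.00148). Its log2 difference of 3.76 became 2.21 without tendon replicate 1 and 5.31 without tendon replicate 2. Col9a1, a fibril-associated collagen, was lower in cornea at 144, 83.3 and 197 against 343 and 387 (adjusted p = 0.00511, 0.0678 without tendon replicate 2).

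**Figure D2:**
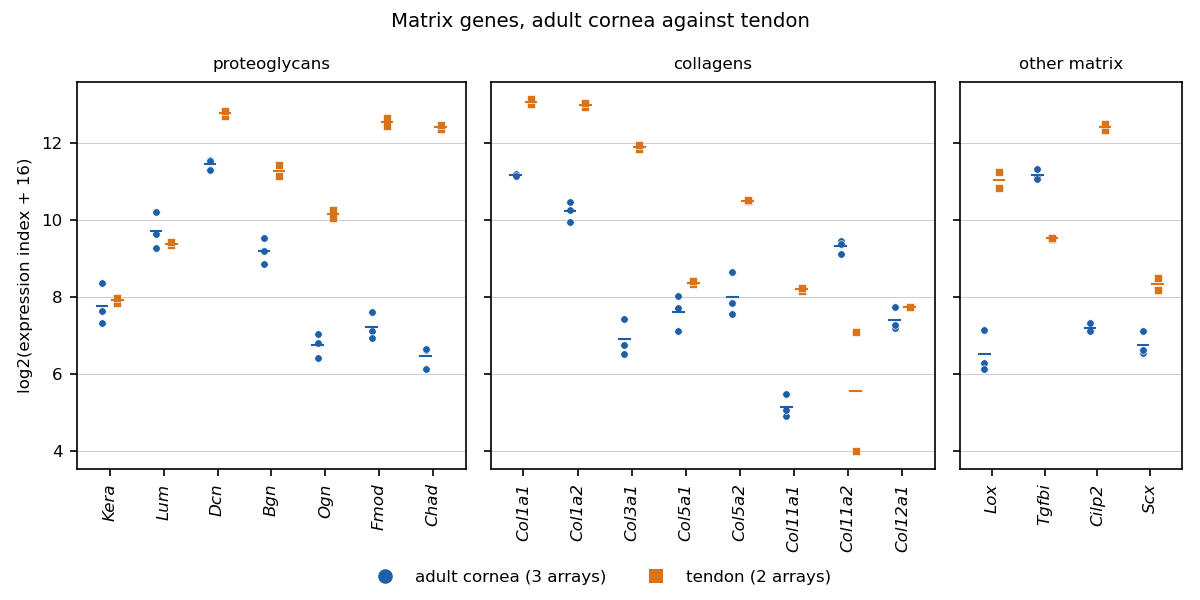
Matrix genes as log2(index + 16) per array, with circles for the 3 adult cornea arrays, squares for the 2 tendon arrays and a bar at each group's mean. Kera and Lum overlap between the tissues, Fmod, Chad, Col3a1, Lox and Cilp2 lie far higher in tendon, and Tgfbi and Col11a2 lie higher in cornea.

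Genes that fold, modify and crosslink collagen gave more lower than higher calls in cornea. Of 14 measured, 7 were lower in cornea and 1 higher (median -0.78). Lox, the lysyl oxidase gene, read 125, 61.7 and 54.1 in cornea and 1800.5 and 2418 in tendon, and the groups stood far apart (23.0-fold lower, -4.52 ± 0.34, adjusted p = 4.07e-06). P4ha1, a prolyl hydroxylase subunit that stabilises the triple helix, read 43.4, 49.2 and 28.9 against 324 and 362 (6.43-fold lower, adjusted p = 1.40e-05). Pcolce, an enhancer of procollagen cleavage, was 5.03-fold lower (adjusted p = 4.63e-05), and Serpinh1, the collagen chaperone HSP47, was 3.88-fold lower (adjusted p = 0.00108). Tgm2, a transglutaminase that joins proteins by a different bond, was the exception. It read 1185, 1122 and 446 in cornea and 181 and 200.3 in tendon, with cornea replicate 3 well below the other corneas but above both tendons (4.16-fold higher, adjusted p = 0.00180).

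Of 18 measured genes of glycosaminoglycan chain synthesis, 2 were higher in cornea and 2 lower (median -0.14). At 11.1% each, these shares lay near those of all genes, 12.9% and 15.5%. Without tendon replicate 1 or 2 the counts were 0 higher and 1 lower, without cornea replicate 1 they were 1 and 1, and without either 10-day-old cornea array 1 gene was lower. The 2 higher genes supply sulfate. Slc26a2, a sulfate transporter, read 140.1, 78.3 and 198 against 40.5 and 42.8 (2.54-fold higher, adjusted p = 0.0132, but 0.109 and 0.0915 without tendon replicates 1 and 2). Papss2, which makes the sulfate donor, read 224, 194 and 113 against 74.5 and 75.5 (2.05-fold higher, adjusted p = 0.0200). The Papss2 call was lost without tendon replicates 1 or 2 or cornea replicate 1 (adjusted p = 0.131, 0.123 and 0.0685). Ugp2, which makes UDP-glucose, was 2.36-fold lower in cornea (adjusted p = 0.000383).

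All 9 measured genes of tendon lineage and tendon matrix were lower in cornea (median -2.10), and Fmod and Chad are also among these 9. The list was named for its known tendon expression, so its direction is a check of the tissue labels. Cilp2, an intermediate layer protein of cartilage and tendon, read 125, 144 and 122 in cornea and 5125 and 5728 in tendon (37.2-fold lower, -5.22 ± 0.17, adjusted p = 1.89e-08). Its second probe set read below 0 on all 3 corneas and 1538 and 1673 on the tendons. Scx, the scleraxis gene, whose product drives tendon cell fate, had a lower index in cornea. It read 76.9, 83.4 and 122 against 272 and 340.2, and no values overlapped (2.95-fold lower, adjusted p = 0.000393). Tnc, the tenascin C gene, read 39.2, 51.2 and 53.5 against 252 and 263 (4.29-fold lower, adjusted p = 1.55e-05). Comp, Thbs4 and Tnmd, which are further markers of tendon, lacked a probe set of their own.

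Elastic fibre and matricellular genes leaned the same way, with 21 of 30 lower in cornea and 2 higher (median -1.35). Ccn2, the connective tissue growth factor gene, read 20.0, 31.3 and 25.5 in cornea and 620.1 and 765 in tendon (17.1-fold lower, adjusted p = 1.66e-06). Tnxb, which encodes tenascin X, a spacer between collagen fibrils, was 9.33-fold lower (adjusted p = 5.53e-06). Mfap5, a microfibril component, was 7.60-fold lower (adjusted p = 3.61e-06) and Sparcl1, which encodes hevin, was 7.89-fold lower (adjusted p = 3.45e-06). Vcan, the versican gene, read -1.59, -8.21 and 1.66 in cornea and 109.5 and 120.3 in tendon (adjusted p = 0.000101). Sparc and Fn1, abundant in both tissues, were 6.52-fold and 4.13-fold lower (adjusted p = 0.000153 and 6.92e-05). Tgfbi, which encodes the corneal matrix protein mutated in stromal dystrophies, ran against the list. It read 2545, 2185 and 2117 in cornea and 714 and 725 in tendon, with every cornea above both tendons (3.12-fold higher, 1.64 ± 0.17, adjusted p = 4.63e-05).

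Matrix proteinases and their inhibitors gave 9 lower and 1 higher of 24, and 5 lower without tendon replicate 1. Serpinf1, which encodes the antiangiogenic protein PEDF, read 379, 554 and 305 in cornea and 3828 and 4211 in tendon (9.68-fold lower, adjusted p = 4.10e-06). Timp3, a matrix-bound inhibitor of metalloproteinases, was 5.46-fold lower (adjusted p = 9.83e-05), and Htra1, a secreted serine protease, 3.03-fold lower (adjusted p = 0.000442). Ctsl, a lysosomal cysteine protease, was the 1 higher gene, at 2439, 1918 and 1876 against 829 and 1132 (adjusted p = 0.00665, 0.110 without tendon replicate 1).

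Cartilage and bone markers showed no common direction, with 3 of 18 higher and 3 lower (1 lower without tendon replicate 2). With all arrays these shares, 16.7% each, lay near those of all genes, 12.9% and 15.5%. Matn1, which encodes the cartilage protein matrilin 1, was one of those higher in cornea. It read 878, 780.2 and 694 in cornea and 91.7 and 105 in tendon (6.98-fold higher, 2.80 ± 0.19, adjusted p = 1.84e-06). Matn4 read 194, 235 and 139 against 64.6 and 79.6 (adjusted p = 0.00324, 0.0570 without tendon replicate 1). Ctsk, a collagen-degrading protease of bone-resorbing cells and fibroblasts, was lower in cornea, at 132, 101 and 158 against 591 and 651 (4.41-fold lower, adjusted p = 4.51e-05).

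Basement membrane genes were called in both directions. Of 21 measured, 5 were higher in cornea (3 without tendon replicate 1) and 9 lower. Laminin chains of epithelial basement membranes were among the higher genes. Lama3 read 211, 268 and 154 in cornea and 11.5 and 12.0 in tendon (8.01-fold higher, adjusted p = 6.01e-06). Lamb3, its partner in laminin 332, read 172, 199 and 148 against 29.3 and 42.7 (3.64-fold higher, adjusted p = 7.80e-05). Chains found around muscle fibres and vessels were lower in cornea. Lama2, the merosin gene, read 78.7, 58.9 and 49.7 against 321 and 434 (5.02-fold lower, adjusted p = 3.17e-05), and Lamb2 was 5.53-fold lower (adjusted p = 4.18e-05). Col15a1, a collagen of muscle and capillary basement membranes, read 8.51, 17.6 and 14.9 in cornea and 811 and 858 in tendon, the largest difference of the list (28.9-fold lower, adjusted p = 7.30e-08).

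The soluble enzymes of the cornea gave some of its largest differences from tendon. Of 14 genes of these enzymes and the pentose phosphate pathway, 7 were higher in cornea and 2 lower (median 0.56), with 4 higher without either tendon array. Aldh3a1, the aldehyde dehydrogenase that makes up much of the soluble protein of mouse cornea and absorbs ultraviolet light, read 5874, 6378 and 7564 on the cornea arrays and -6.41 and -14.1 on the tendon arrays. Both tendon values were below 0, so no fold is given (adjusted p = 4.99e-09). A second probe set of Aldh3a1 also gave 2928, 2835 and 2958 on the corneas and -116 and -148 on the tendons. Tkt, the transketolase gene, read 4459.8, 4496 and 4689.9 against 115 and 133 (32.6-fold higher, 5.03 ± 0.24, adjusted p = 1.21e-07). Aldh1a3, which makes retinoic acid, was 3.73-fold higher (adjusted p = 9.20e-05) and Aldh1a1 3.21-fold higher (adjusted p = 0.00337). A second Aldh1a1 probe set read 77.15 to 149.8 in cornea and 107.8 and 104.4 in tendon and was not called. Taldo1, which works beside transketolase, read 476, 386 and 253 against 145 and 134 (adjusted p = 0.00626, 0.0549 and 0.0712 without tendon replicates 1 and 2). Gsn, the gelsolin gene, and Me1, malic enzyme, were the 2 lower genes. Gsn read 947, 990.2 and 576 in cornea and 4574 and 5115 in tendon (5.84-fold lower, adjusted p = 6.87e-05).

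Glutathione and oxidant defence genes showed no common direction, with 7 of 36 higher and 8 lower (5 lower without either tendon array). With all arrays these shares were 19.4% and 22.2%, against 12.9% and 15.5% of all genes. The members with the largest differences took opposite sides. Gsta4, a glutathione transferase that clears lipid peroxidation products, read 3557, 3768 and 3849 in cornea and 31.8 and 30.9 in tendon (79.0-fold higher, 6.30 ± 0.34, adjusted p = 3.03e-07). Gsto1, an omega-class transferase, read 5675, 5354 and 6138 against 136 and 137 (37.5-fold higher, 5.23 ± 0.18, adjusted p = 2.24e-08). The 2 genes stood apart from tendon on every cornea array. Gpx3, the plasma glutathione peroxidase, read 74.0, 63.6 and 118 against 914 and 723 (8.40-fold lower, adjusted p = 7.95e-05). Sod3, the extracellular superoxide dismutase, was 5.32-fold lower (adjusted p = 4.11e-05) and Mgst1, a microsomal transferase, 6.14-fold lower (adjusted p = 0.000145).

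Epithelial genes remained prominent on the cornea arrays despite the scraping. Of 17 keratins, 12 were higher in cornea and 2 lower (median 2.53), and their summed index ran from 17077 to 20379 on the cornea arrays against 1793 and 3932 on the tendon arrays. Krt12, the keratin of corneal epithelium, read 6614, 6685 and 8290.3 in cornea and 401 and 257 in tendon (21.3-fold higher, 4.41 ± 0.21, adjusted p = 1.21e-07). Krt6a read 4268, 4698 and 4904 against 181 and 143 (26.2-fold higher, adjusted p = 6.88e-08), and Krt6b 2554, 3021 and 3022 against 80.3 and 95.0 (27.8-fold higher, adjusted p = 6.94e-08). Their sequences are close, so the signals may be shared. Krt14, the basal cell keratin, read 759, 1068 and 789 against 124 and 20.4. The tendon arrays were uneven for it, but both lay under every cornea (12.3-fold higher, adjusted p = 0.000147). Its log2 difference of 3.62 became 4.59 and 2.65 without tendon replicates 1 and 2. Krt13, a keratin of moist surface epithelia, was 17.4-fold higher (adjusted p = 4.10e-06), with cornea replicate 2 at 851 and the other 2 corneas at 362 and 409.

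Krt5, the usual partner of keratin 14, was not called. It read 69.7, 62.0 and 142 in cornea and 84.2 and 111 in tendon, and the tendon values lay inside the corneal range (adjusted p = 0.767). The 2 keratins lower in cornea were Krt10 and Krt2, which belong to the outer layers of skin. Krt10 read 98.4, 84.7 and 67.3 against 1853 and 464, with the tendon arrays far apart (9.60-fold lower, adjusted p = 0.000274). Its log2 difference of -3.26 became -2.28 and -4.24 without tendon replicates 1 and 2. Krt2 read 96.8, 60.0 and 148 against 339 and 169 (adjusted p = 0.0301), a call lost in 4 other fits, with adjusted p = 0.336 without tendon replicate 1.

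Junction genes of epithelium were higher in cornea for 19 of 30 members and lower for 1 (median 1.92). Dsc2, a desmosomal cadherin, read 1137, 871 and 571 in cornea and 5.14 and 5.03 in tendon (40.0-fold higher, adjusted p = 1.72e-07). Perp, a desmosomal membrane protein, read 3633, 3543 and 3292 against 275 and 68.4 (22.3-fold higher, adjusted p = 2.01e-05). Col17a1, the transmembrane collagen of hemidesmosomes that tie basal cells to their basement membrane, read 1879.9, 2242 and 1525 against 77.8 and 25.2 (30.2-fold higher, 4.91 ± 0.32, adjusted p = 1.21e-06). Pkp1, which encodes the desmosomal plaque protein plakophilin 1, read 1136, 982 and 685 against 45.0 and -5.37 (higher in cornea, adjusted p = 1.74e-05). Cldn7, a claudin of epithelial cell contacts, read 955, 910.5 and 607 against -11.2 and 0.573 (adjusted p = 7.94e-08). The tendon arrays disagreed on Perp, Col17a1 and Pkp1. Without tendon replicates 1 and 2, the log2 difference of Perp became 5.37 and 3.59, that of Col17a1 5.51 and 4.32, and that of Pkp1 5.86 and 3.93. Tjp1, which encodes the tight junction scaffold ZO-1, was the 1 lower member, at 321, 248 and 379 against 2082 and 1995 (6.27-fold lower, adjusted p = 3.45e-06). A second Tjp1 probe set read 160 to 357 in cornea and 139 and 157 in tendon and was not called, so the direction rests on 1 probe set.

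Differentiation and surface genes of epithelium divided, with 11 of 32 higher and 6 lower, and 2 lower without tendon replicate 1. With all arrays the shares were 34.4% higher and 18.8% lower, against 12.9% and 15.5% of all genes. Slurp1, a secreted protein of the Ly6 family, read 1077, 1532 and 1198 in cornea and 6.75 and 19.2 in tendon (44.9-fold higher, adjusted p = 9.42e-06). Psca, of the same family, read 1203, 2236 and 1580.5 against 23.7 and 32.6 (37.3-fold higher, adjusted p = 2.32e-07). Sfn, the epithelial 14-3-3 sigma gene, was 35.0-fold higher (log2 5.13, or 5.83 and 4.44 without tendon replicates 1 and 2, adjusted p = 2.60e-06) and Serpinb5, the maspin gene, 12.5-fold higher (adjusted p = 1.75e-05). Plet1, a surface protein of epithelial progenitors, read 2377, 2144 and 1362 in cornea and below 0 on both tendons (adjusted p = 7.94e-08). Ly6d gave opposite calls from its 2 probe sets: the brighter one was 2.66-fold lower in cornea (adjusted p = 0.000976) and the dimmer one was higher (adjusted p = 4.87e-05).

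Transcription factors of epithelium and eye were higher in cornea for 14 of 27 genes and lower for 6, or 3 without tendon replicate 1 (median 0.66). Pax6, the master regulator of eye development, read 833, 619 and 579.5 in cornea and 3.80 and 2.39 in tendon (35.9-fold higher, 5.17 ± 0.25, adjusted p = 1.37e-07). Elf3, an ETS factor of epithelium, read 1005, 1274 and 1028 against 48.0 and 35.6 (19.3-fold higher, adjusted p = 1.02e-07). Trp63, which maintains stratified epithelium, was 6.54-fold higher (adjusted p = 1.54e-05), Esrp1, an epithelial splicing regulator, 13.8-fold higher (adjusted p = 8.70e-06) and Klf4 4.66-fold higher (adjusted p = 1.93e-05). Dach1, a corepressor that acts with eye genes, went the other way at -8.84, 22.8 and -44.7 against 1823 and 2055, though a second Dach1 probe set was not called. Of 8 corneal endothelium markers, 2 were lower in cornea (25.0%, against 15.5% of all genes) and 6 were not called. The lower ones were Col8a1 at 70.1, 86.3 and 61.3 against 150.3 and 199 (2.15-fold lower, adjusted p = 0.00208) and Slc4a3. The cornea values of Slc4a3 were all far below 0 and give no level.

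Most measured muscle genes were lower in cornea. The flexor digitorum longus tendon runs on from its muscle belly, and the labels do not say where it was cut. Of 38 sarcomere genes, 36 were lower in cornea and 1 higher (median -4.50), and their summed index was 1883 to 2295 in cornea against 69660 and 75672 in tendon. Of 31 genes of muscle calcium handling and energy supply, 28 were lower and 3 not called (median -4.38), with a summed index of 1681 to 1755 against 44611 and 51672. Myh4, the fastest myosin heavy chain, read 4.62, 2.48 and 7.62 in cornea and 5579.9 and 6738 in tendon (296-fold lower, -8.21 ± 0.25, adjusted p = 1.55e-08). Corneal values sat near 0 for it, so the fold depends on the pseudocount. Acta1, skeletal actin, read 20.1, 50.9 and 48.0 against 3449 and 4308 (72.2-fold lower, adjusted p = 4.03e-07). Tnnt3, fast troponin T, read 13.2, 19.1 and 20.1 against 5919 and 6599 (188-fold lower, adjusted p = 4.99e-09).

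Both fast and slow fibre genes were present on the tendon arrays. Mylpf, the fast regulatory light chain, read 4878 and 5998 in tendon and Myl2, the slow one, 4075 and 3819, against at most 22.4 and 9.45 in cornea (adjusted p = 7.19e-08 and 4.99e-09). Myh7, the slow and cardiac heavy chain, read 6.94, 33.3 and 12.7 in cornea and 4257 and 4044 in tendon (131-fold lower, adjusted p = 5.65e-08). Tnnt1, slow troponin T, was 52.3-fold lower (adjusted p = 1.61e-08). Myh2, of oxidative fast fibres, was the other gene of the list beside Tnnc1 not called lower, at 25.4, 36.7 and 28.0 against 22.6 and 19.6 (adjusted p = 0.400). Tnnc1, slow troponin C, was called higher in cornea, at 49.6, 43.2 and 67.9, but its tendon values were -1336 and -869.9, far below 0, and give no level.

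Calcium and energy genes of the fibre were lower as well. Atp2a1, the fast calcium pump, was 56.3-fold lower by its brighter probe set (adjusted p = 3.60e-08). Ckm, muscle creatine kinase, read 19.4, 12.9 and 12.0 against 3349 and 3879.7 (118-fold lower, adjusted p = 4.53e-08), and Mb, myoglobin, -3.38, 11.1 and 1.38 against 3225 and 3450.4 (lower in cornea, adjusted p = 1.61e-08). A second Ckm probe set read 27.2 to 41.3 in cornea and 48.9 and 39.1 in tendon and was not called. Pygm, which breaks down glycogen in muscle, was 90.7-fold lower (adjusted p = 1.10e-07). Muscle regulators and synapse genes were lower for 14 of 24, with 10 not called (median -0.78), with 7 and 6 lower without tendon replicates 1 and 2 and 9 without cornea replicate 1. Sgca, a sarcoglycan, was 5.46-fold lower (adjusted p = 7.00e-06) and Dmd, dystrophin, 2.86-fold lower (adjusted p = 0.000453).

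Short DNA motifs upstream of these genes were counted because so many muscle genes moved together. RefSeq gives a promoter sequence for 6572 genes on the array, and the 250 bases before the listed transcription start were searched on both strands. TATANA, a form of the TATA box, was found in 33.3% of 51 windows of muscle genes that were lower in cornea, and in 15.6% of all 6572. The CArG box, the site of serum response factor, was found in 11.8% against 1.43%, and the MEF2 site in 9.80% against 1.72%. CANNTG, the E-box bound by MyoD among many factors, was in 84.3% against 58.7%. The GC box GGGCGG was in 39.2% against 54.8%, and TGANTCA, the AP-1 site, in 5.88% against 5.45%. In 21 windows of epithelial genes higher in cornea, CANNTG was in 76.2% and TATANA in 23.8%. Over all 32851 windows of the RefSeq table, array genes or not, TATANA was in 22.6%, CANNTG in 66.2%, the CArG box in 1.47% and the MEF2 site in 2.92%. The CArG box and MEF2 site can overlap a TATA box, a match does not show that a factor binds, and no test was made of these shares. Among 26 windows of matrix genes lower in cornea, 23.1% held TATANA and 0 held a CArG box. The windows of Acta1, Myh4, Krt12 and Fmod are printed to show genes of muscle, epithelium and tendon matrix side by side. Capitals mark matches to TATANA or the CArG box on either strand, and each sequence runs 5′ to 3′ toward the gene and ends at the base before the listed start.
Acta1 (GRCm38.p6, chr8:123894776-123895025, minus strand): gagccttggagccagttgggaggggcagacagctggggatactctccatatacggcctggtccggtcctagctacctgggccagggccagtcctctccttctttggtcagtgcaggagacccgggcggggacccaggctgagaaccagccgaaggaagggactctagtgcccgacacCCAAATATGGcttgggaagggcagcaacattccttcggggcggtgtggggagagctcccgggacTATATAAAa
Myh4 (GRCm38.p6, chr11:67237562-67237811, plus strand): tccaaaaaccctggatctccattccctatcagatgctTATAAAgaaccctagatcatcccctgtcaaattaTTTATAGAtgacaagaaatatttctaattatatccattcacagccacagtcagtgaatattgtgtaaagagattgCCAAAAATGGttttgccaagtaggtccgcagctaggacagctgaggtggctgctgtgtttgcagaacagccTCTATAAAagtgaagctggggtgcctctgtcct
Krt12 (GRCm38.p6, chr11:99422260-99422509, minus strand): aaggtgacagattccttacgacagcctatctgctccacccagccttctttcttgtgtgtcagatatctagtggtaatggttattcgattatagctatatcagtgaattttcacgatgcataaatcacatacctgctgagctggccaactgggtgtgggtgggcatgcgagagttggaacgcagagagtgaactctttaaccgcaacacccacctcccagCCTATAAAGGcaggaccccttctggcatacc
Fmod (GRCm38.p6, chr1:134037004-134037253, plus strand): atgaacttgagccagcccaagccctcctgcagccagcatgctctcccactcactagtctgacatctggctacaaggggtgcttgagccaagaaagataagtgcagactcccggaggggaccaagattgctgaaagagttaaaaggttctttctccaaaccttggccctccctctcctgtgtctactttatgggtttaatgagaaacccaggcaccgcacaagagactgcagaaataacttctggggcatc
Acta1 and Myh4 each held a CArG box, which starts 73 and 104 bases before the start. In Krt12 the match to the CArG box lay over the TATA box, 31 bases before the start. Fmod held neither motif in this window. The windows of Ckm and Kera were searched too and are not printed. Ckm, a muscle gene lower in cornea, held TATANA but no CArG box, and Kera held neither.

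Genes of other cell types also moved with the tendon arrays. Of 24 adipocyte genes, 16 were lower in cornea and 1 higher (median -1.65), and their summed index was 2773 to 3111 in cornea against 14999 and 16269 in tendon. Fabp4, the fatty acid carrier of fat cells and capillaries, read 17.0, 10.4 and 21.7 in cornea and 1738 and 2162 in tendon (61.0-fold lower, -5.93 ± 0.21, adjusted p = 2.90e-08). Adipoq, the adiponectin gene, read 17.4, 28.3 and 29.8 against 1162 and 804 (24.1-fold lower, adjusted p = 2.22e-07). Scd1, a fatty acid desaturase, read 68.1, 75.9 and 41.8 against 4638 and 4259 (58.4-fold lower, adjusted p = 9.97e-08). Lpl, lipoprotein lipase, read below 0 on all 3 corneas and 1369 and 1346 in tendon (adjusted p = 3.37e-07). The part of fat and muscle beside the tendon in the matrix and metabolic differences was not tested.

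Vessel and blood genes were lower in cornea too. Of 20 vascular endothelium genes, 10 were lower and 1 was higher (median -0.64), and their summed index was 1552 to 2054 in cornea against 3298 and 3332 in tendon. Cdh5, the cadherin of endothelial cells, read 0.710, 7.37 and -6.02 in cornea and 109.7 and 128 in tendon (adjusted p = 4.88e-06). Vwf, von Willebrand factor, read 10.0, 23.9 and 16.6 against 118 and 138 (4.45-fold lower, adjusted p = 3.17e-05) and Cd34 36.1, 29.6 and 38.0 against 285 and 287 (5.99-fold lower, adjusted p = 9.17e-06). Pecam1 was the 1 gene called higher, but its tendon values were -388 and -254 and give no level. Red blood cell genes were lower for 5 of 8, and 2 were lower without tendon replicate 2. That count was 3 without tendon replicate 1, cornea replicate 1 or either 10-day cornea, and with a filter on low values. Their summed index was 939.6 to 1420 in cornea against 2625 and 2639 in tendon. The cornea held haemoglobin readings of its own: Hba-a1, alpha globin, read 467, 468 and 775 in cornea and 1594 and 1473 in tendon (2.72-fold lower, adjusted p = 0.00177). The haemoglobin gene Hbb-bs lacked a probe set of its own.

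Leukocyte genes were lower in cornea for 11 of 34 and higher for 2 (median -0.47), with 7 lower without tendon replicate 2. Their summed index was 2611 to 3242 in cornea against 8241 and 8415 in tendon. Lyz2, lysozyme, read 8.40, 16.8 and 5.73 in cornea and 285 and 341 in tendon (12.6-fold lower, adjusted p = 6.80e-07). Mrc1, the mannose receptor, read 3.14, -1.31 and 8.10 against 198 and 217 (lower in cornea, adjusted p = 6.45e-07), and C1qc, a complement chain, was 6.23-fold lower (adjusted p = 2.60e-06). The general leukocyte gene Ptprc was not called by its brightest probe set, at 129, 100.3 and 92.2 against 109 and 131. Mast cell genes gave 1 higher and 3 lower of 13 (7.69% and 23.1%, against 12.9% and 15.5% of all genes). Kit, a receptor of mast cells and pigment cells, was the higher one at 360.0, 254 and 208 against 8.97 and 17.9 (9.74-fold higher, adjusted p = 3.51e-06), while Cma1, mast cell chymase, was 3.55-fold lower (adjusted p = 3.91e-05).

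General fibroblast genes were mostly lower in cornea. Of 23 measured, 17 were lower in cornea and 1 higher (median -1.78). Igfbp6, a binding protein that holds insulin-like growth factor II, read 31.3, 41.8 and 62.2 in cornea and 3688 and 3823 in tendon (63.1-fold lower, -5.98 ± 0.24, adjusted p = 5.65e-08). Thy1, a surface marker of many fibroblasts, read -2.33, 10.4 and 22.7 against 492 and 506 (lower in cornea, adjusted p = 2.74e-06). S100a4, or fibroblast-specific protein, read 160.5, 196 and 162 against 2814 and 3398 (16.5-fold lower, adjusted p = 9.97e-08). Vim, the vimentin gene, was not called, at 103, 53.5 and 129 against 150.1 and 130.0 (adjusted p = 0.189), but it passed without cornea replicate 3 and with a replicate block (adjusted p = 0.0454 and 0.0415). Smooth muscle and pericyte genes were lower for 8 of 12 and higher for 2. Acta2, smooth muscle actin and the mark of activated stromal cells, read 8.60, 33.9 and 27.7 against 391 and 301 (9.53-fold lower, adjusted p = 5.68e-05). Cnn1, calponin, ran against it at 578, 1265 and 860.0 in cornea and 189 and 189 in tendon (4.27-fold higher, adjusted p = 0.000318), as did Notch3 (4.01-fold higher, adjusted p = 2.29e-05). Of 16 Schwann cell and nerve genes 2 were lower in cornea, with 1 without tendon replicate 1 and 5 without cornea replicate 3. The share of lower Schwann cell and nerve genes, 12.5% with all arrays, lay near the 15.5% of all genes. Of 9 melanocyte genes 2 were lower (22.2%, against 15.5% of all genes). The melanocyte count was 0 without tendon replicate 2 or cornea replicate 1, and 1 without tendon replicate 1, cornea replicate 2, either lens array or either 10-day-old cornea array.

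**Figure D3:**
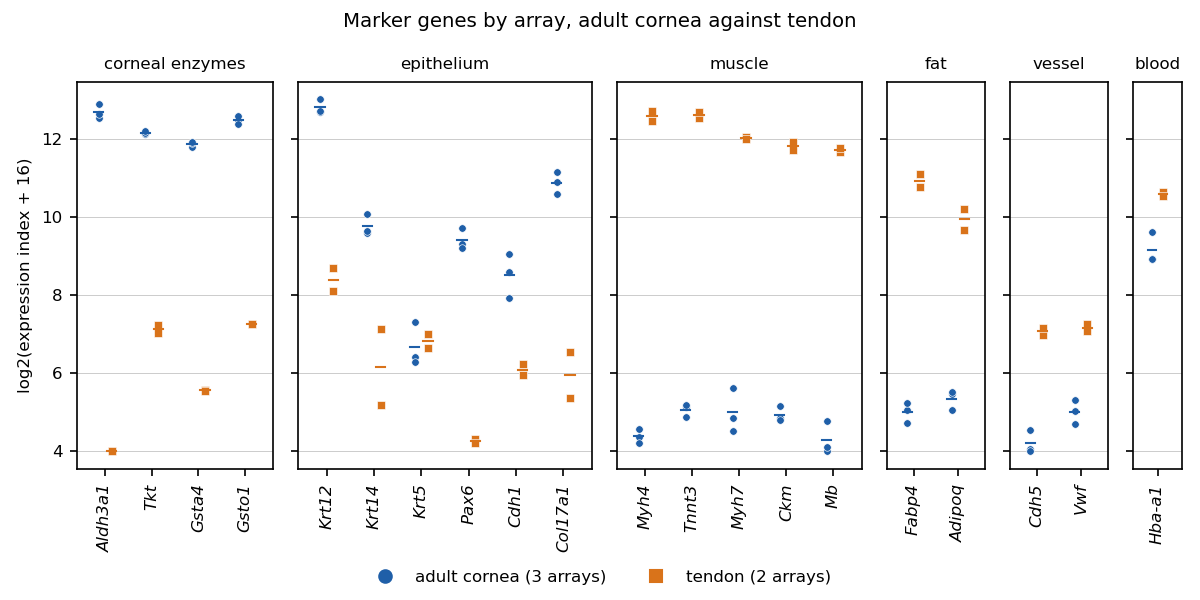
Genes that mark corneal enzymes, epithelium, muscle, fat, vessels and blood, as log2(index + 16) per array, with circles for the 3 adult cornea arrays, squares for the 2 tendon arrays and a bar at each group's mean. The tissues separate for every gene shown except Krt5, and Hba-a1, Fabp4 and the muscle genes lie higher in tendon.

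Lens crystallins were higher on the cornea arrays. Of 9 measured, 8 were higher in cornea than in tendon and 1 lower (median 5.09), and the summed index was 8036 to 13276 in cornea against 581 and 636 in tendon. Cryaa, the alpha A chain, read 1279.7, 2443 and 2078 in cornea and 12.2 and 31.7 in tendon (51.4-fold higher, 5.68 ± 0.35, adjusted p = 7.48e-07). On the lens arrays of the same study it read 6405 and 7231, and on the 10-day corneas 1603 and 3082. Crygd, a gamma crystallin, read 869, 1729 and 1416 in cornea, 21.6 and 23.1 in tendon and 7582 and 8079 in lens (cornea against tendon 34.0-fold higher, adjusted p = 5.77e-07). Cryba1 and Crybb2 read below 0 on both tendons and 1147, 1747 and 1468 and 846, 1441 and 1250.3 on the corneas. Cornea replicate 1 was the lowest cornea for all 4 of these genes by the probe sets given so far. A second Crybb2 probe set read 146 to 194 in cornea and 132 and 159 in tendon and was not called. For Crygd, a second probe set was called in the opposite direction, at 166, 147 and 239 in cornea and 2067 and 1594 in tendon (9.33-fold lower). The 1 lower gene, Cryab, is also a muscle chaperone, at 226, 251 and 220.5 against 356 and 371 (adjusted p = 0.0320). Its call was lost without either tendon array or cornea replicate 1, or with a replicate block (adjusted p = 0.144, 0.176, 0.0816 and 0.0685). Of 6 lens fibre membrane and regulatory genes, 1 was higher, the lens channel gene Mip at 27.2, 34.7 and 37.7 against 11.7 and 14.2, where the lens arrays read 1918 and 1799.6. The Mip call was lost in 5 other fits (adjusted p = 0.0506 to 0.190, the highest without tendon replicate 1).

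Photoreceptor genes, which belong to the retina, were higher in cornea for 7 of 15, with 8 not called (median 1.03; 4 higher without tendon replicate 1). Sag, the rod arrestin gene, read 239.9, 346 and 1204 in cornea and -5.27 and 1.81 in tendon, with cornea replicate 3 over 3 times each of the other corneas (log2 difference 4.84, or 4.17 without cornea replicate 3, adjusted p = 8.34e-05). Pde6g, a rod phosphodiesterase subunit, read 118, 189 and 287 against 27.3 and 31.0 (4.49-fold higher, adjusted p = 0.000696). The summed index of the list was 1646, 2111 and 3706 on cornea replicates 1, 2 and 3 against 840 and 929 on the tendons. What part lens or retinal RNA had in these corneal readings was not tested.

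Genes of mitochondrial energy supply were mostly lower in cornea. Of 62 genes of the respiratory chain and ATP synthase, 36 were lower in cornea and 1 higher (median -0.83), or 22 and 19 lower without tendon replicates 1 and 2. Of 33 genes of the citrate cycle and fatty acid oxidation 17 were lower and 1 higher, or 11 and 8 lower in those fits. Cyc1, cytochrome c1 of complex III, read 837, 689 and 1388 in cornea and 3486 and 3540.1 in tendon (3.73-fold lower, adjusted p = 0.000450). Sdhc, a subunit of complex II, was 4.17-fold lower (adjusted p = 5.80e-05), Pdha1, of pyruvate dehydrogenase, 4.85-fold lower (adjusted p = 0.000168) and Idh2, the mitochondrial isocitrate dehydrogenase, 5.62-fold lower (adjusted p = 9.35e-05).

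Several subunits and enzymes exist as a muscle form and a widely expressed form, and pairs of these were set side by side after their values had been seen. Cox6a2, the muscle form of a cytochrome oxidase subunit, read 2.00, 4.55 and -0.421 in cornea and 3408 and 3608 in tendon (lower in cornea, adjusted p = 1.18e-08). Cox6a1, the general form, read 1168, 1382 and 1010.5 against 584 and 630.0. It was the 1 respiratory gene higher in cornea (1.92-fold higher, adjusted p = 0.00814, but 0.0884 and 0.0581 without tendon replicates 1 and 2). Cox7a1, of muscle and heart, read -0.0305, 1.84 and -3.24 against 189 and 233 (lower in cornea, adjusted p = 1.33e-07). Its general counterpart Cox7a2 was not called, at 666, 825 and 581 against 616 and 694. Cox8b, of muscle and fat, was 20.9-fold lower (adjusted p = 4.04e-06), and the general Cox8a had low readings in both tissues, at 14.8 to 47.3 in cornea and 25.9 and 24.1 in tendon.

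Glucose uptake and glycolysis were called in both directions, with 13 of 23 genes of glycolysis and lactate lower in cornea and 4 higher (median -0.96). Slc2a4, the insulin-responsive transporter of muscle and fat, read 84.0, 67.9 and 115 in cornea and 349 and 383 in tendon (3.71-fold lower, adjusted p = 0.00212). Slc2a1, the transporter of barrier epithelia, read 243, 301 and 167 against 80.3 and 79.6 (2.57-fold higher, adjusted p = 0.00263). Hk2, the muscle hexokinase, was 4.31-fold lower and Hk1, the general one, 2.01-fold higher (adjusted p = 1.72e-05 and 0.00226). Aldoa, the muscle aldolase, was 5.65-fold lower (adjusted p = 5.13e-05), while Aldoc, the brain form, read 88.8, 157 and 77.8 in cornea and below 0 on both tendons (adjusted p = 3.72e-05). Eno3 and Pgam2, the muscle enolase and phosphoglycerate mutase, were both lower in cornea, Eno3 58.2-fold (adjusted p = 8.54e-08 and 8.11e-08). Pgam1, the general mutase, read 261, 258 and 206 against 115 and 144 (1.77-fold higher, adjusted p = 0.0474), a call lost in 8 of the 18 other fits (adjusted p = 0.0508 to 0.300).

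**Figure D4:**
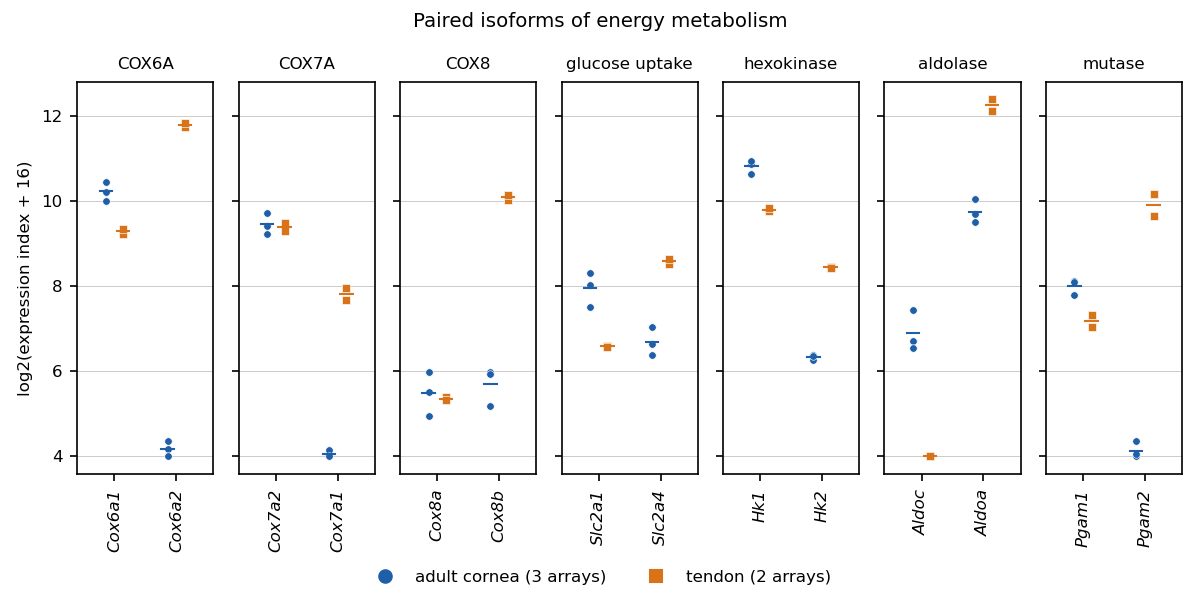
Pairs of isoforms of respiratory subunits and glycolytic genes as log2(index + 16) per array. Circles mark the 3 adult cornea arrays, squares the 2 tendon arrays and a bar each group's mean. The general form is on the left and the form of muscle or fat on the right. The aldolase pair differs, with Aldoc, the brain form, on the left and Aldoa on the right. The right-hand gene of each pair lies higher in tendon, and the left-hand gene of most pairs lies level or higher in cornea.

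Cell cycle genes leaned toward the cornea, with 16 of 43 higher and 2 lower (median 0.54). Ccnd1, the cyclin of G1 phase, read 855, 1045 and 959 in cornea and 96.2 and 127 in tendon (7.62-fold higher, adjusted p = 2.05e-05). Mki67, the proliferation marker Ki-67, read 223, 149 and 123 against 22.4 and 12.4 (5.33-fold higher, adjusted p = 0.000171). Top2a, a topoisomerase of dividing cells, read 66.5, 95.6 and 48.1 against 4.23 and -2.69 (higher in cornea, adjusted p = 0.000195), and Hmgb2, a chromatin protein of dividing cells, was 7.91-fold higher (adjusted p = 4.19e-05). Cdc25a, a phosphatase that starts division, was lower at 53.5, 76.1 and 48.3 against 1785 and 1840.4 (24.6-fold lower, adjusted p = 1.20e-06), but its second probe set read 57.2 to 69.6 in cornea and 50.0 and 55.8 in tendon and was not called. The keratins named above were high on the same arrays, and their part in the cell cycle differences was not tested.

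Antigen presentation and interferon genes were mixed, with 33.3% higher and 14.8% lower, against 12.9% and 15.5% of all genes. Of 27 measured, 9 were higher in cornea and 4 lower, with 4 to 5 higher and 2 lower without either tendon array. Psmb8, a subunit of the immunoproteasome that cuts peptides for class I presentation, read 385, 338 and 210.0 in cornea and 59.3 and 66.6 in tendon (4.03-fold higher, adjusted p = 0.000159). B2m, the light chain of class I molecules, went the opposite way at 523, 442 and 200.1 against 1944 and 1846 (5.08-fold lower, adjusted p = 0.00858). The B2m call was lost without tendon replicates 1 or 2 and with a pseudocount of 1 (adjusted p = 0.0854, 0.0739 and 0.0577). Class II genes were lower in cornea: H2-Aa read -2.06, 15.3 and 10.7 against 209.9 and 186 (adjusted p = 8.32e-06) and Cd74, the invariant chain, was 3.20-fold lower (adjusted p = 0.00124).

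Growth factor pathways gave single genes with large differences and many without. Of the Wnt list, 15.8% were higher and 23.7% lower, against 12.9% and 15.5% of all genes. The Wnt list had 6 of 38 higher and 9 lower, and 3 higher and 3 to 4 lower without either tendon array. Sfrp1, a secreted antagonist of Wnt ligands, read 312, 443 and 229.9 in cornea and 2.12 and -2.37 in tendon (higher in cornea, adjusted p = 1.67e-06). Wnt4, a ligand, read 323, 573 and 279 against 63.1 and 52.7 (5.28-fold higher, adjusted p = 0.000195). Wnt5b, another ligand, was 3.79-fold lower (adjusted p = 1.78e-05), and Frzb, an antagonist found in cartilage, 3.72-fold lower (adjusted p = 7.29e-05).

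The TGF-beta and BMP list had 2 of 39 higher and 12 lower, or 7 and 6 lower without tendon replicates 1 and 2. Tgfb3, a ligand of scarless repair and tendon development, read 48.7, 61.6 and 84.1 in cornea and 414 and 407 in tendon (5.36-fold lower, adjusted p = 1.73e-05). Fstl1, a secreted BMP antagonist, read 498, 229.9 and 183 against 2446 and 2183 (7.93-fold lower, adjusted p = 0.000322), and the coreceptor Tgfbr3 was 4.14-fold lower (adjusted p = 2.59e-05). Tgfb1, the ligand of stromal scarring, was not called, at 75.9, 144 and 83.9 against 112 and 109.

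Insulin-like growth factor binding proteins were called in both directions. Of the whole IGF, FGF and EGF list, 12.8% were higher, near the 12.9% of all genes, and 33.3% lower, against 15.5%. Of 39 genes of the IGF, FGF and EGF list, 5 were higher (3 without tendon replicate 1) and 13 lower (8 without tendon replicate 2). Igfbp2 read 1314, 1268 and 946 in cornea and 25.4 and 27.7 in tendon (27.7-fold higher, 4.79 ± 0.28, adjusted p = 6.05e-07). Igfbp7, which also binds matrix, read 147, 155 and 119 against 1901 and 2019 (12.7-fold lower, adjusted p = 1.63e-06), and Igfbp6, described above, was lower as well. Fgfbp1, which releases fibroblast growth factors from matrix, was 4.72-fold higher (adjusted p = 5.18e-05).

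Immediate-early genes, which respond within minutes to handling of tissue, were higher for 3 of 27 and lower for 8, or 3 lower without either tendon array and 1 higher without tendon replicate 1. With all arrays the shares were 11.1% higher and 29.6% lower, against 12.9% and 15.5% of all genes. Fos and Jun were not called, at 208, 167 and 80.0 against 97.8 and 120.4 and at 100.4, 83.2 and 43.1 against 104 and 86.3. Klf4, described above, is also on this list and was its called member with the largest difference (4.66-fold higher). Dusp1, a phosphatase of stress signalling, was 3.44-fold lower in cornea (adjusted p = 0.000251) and Klf2, a factor of endothelium, 2.86-fold lower (adjusted p = 0.000306). Cytosolic ribosomal protein genes were mostly not called, with 4 of 28 higher (14.3%, against 12.9% of all genes) and 1 lower (median 0.11). That count depended on scaling, with 13 higher after quantile normalization and 7 after trimmed mean scaling. It was 1 without tendon replicate 1 and 2 without tendon replicate 2, cornea replicates 1 or 3 or either 10-day cornea. Rpl10a was the largest of the 4 at 1885, 2266 and 2138 against 755 and 766 (2.71-fold higher, adjusted p = 0.000114).

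**Figure D5:**
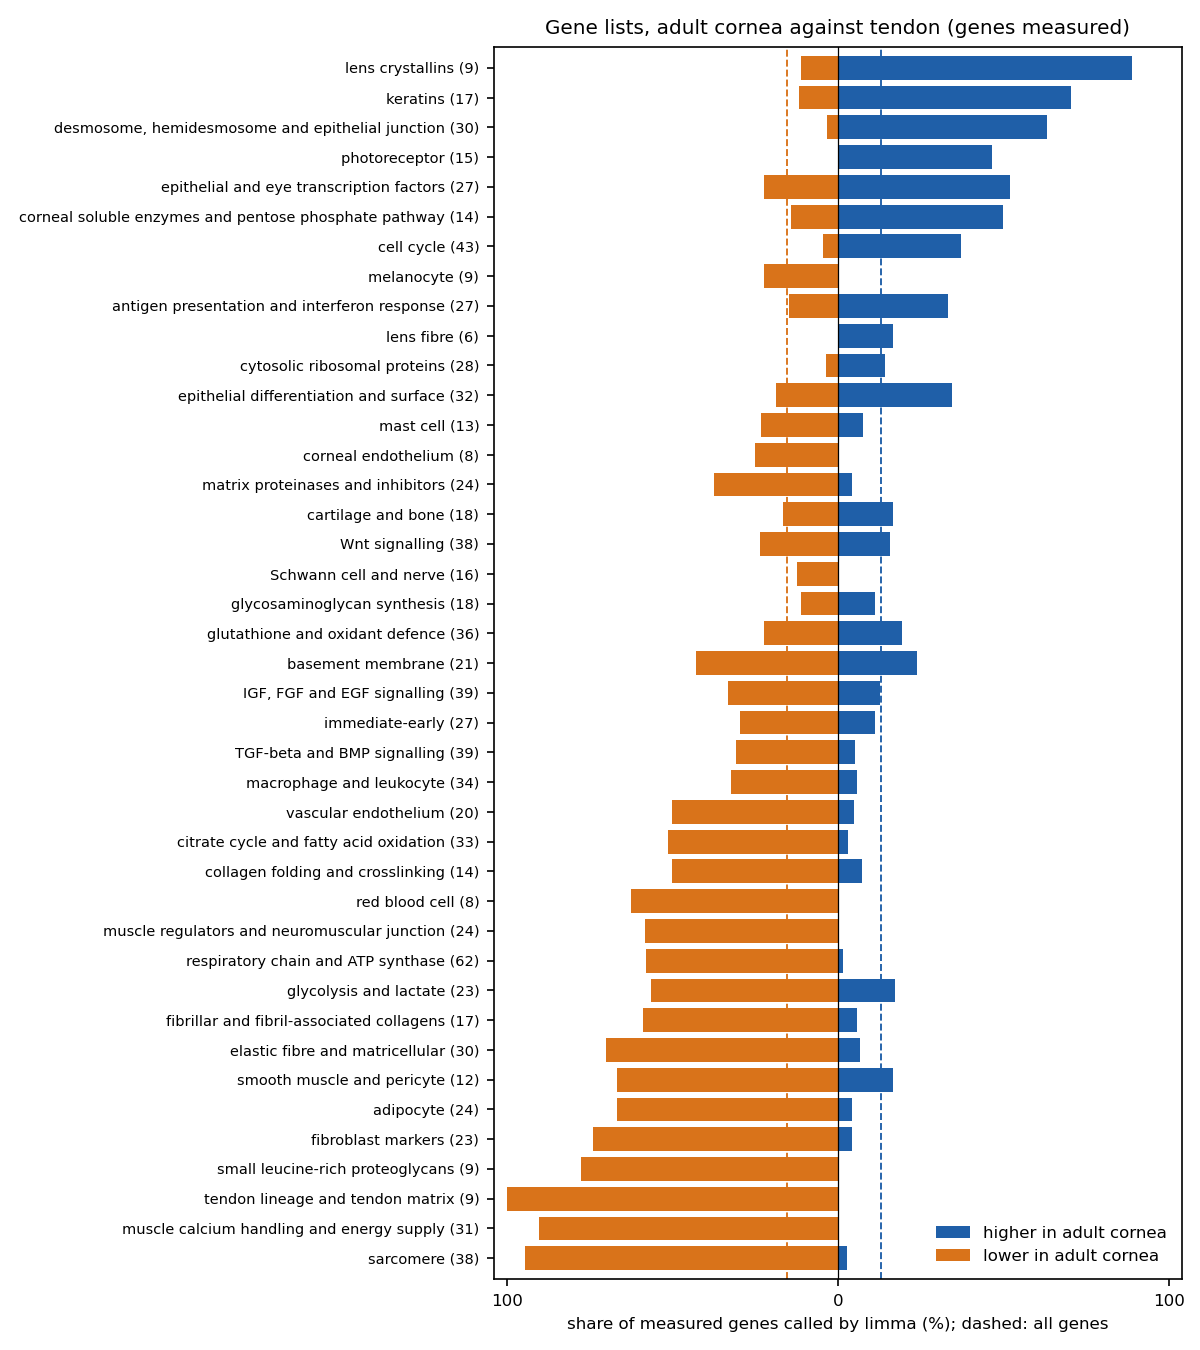
Share of measured genes called higher (blue, to the right) and lower (orange, to the left) in adult cornea for each of the 41 gene lists, in percent, ordered by the median log2 difference, with the number of measured genes in brackets. Dashed lines mark the shares over all genes, 12.9% higher and 15.5% lower; crystallins, keratins and junction genes pass the first line most, and sarcomere, muscle energy and tendon genes the second.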

How the data were processed

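Total RNA from 3 adult cornea and 2 tendon preparations was hybridised to Affymetrix arrays. The values are the intensity of each probe set as a linear expression index in arbitrary units, as deposited by the authors, and some lie below 0. The submitters' processing notes name MAS5, and the series text describes dChip; the sources used here do not say which program made these values. Precision is limited by the number of arrays.

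Values were floored at 0 and transformed to log2(index + 16). A group-means model over all 9 arrays was fitted with limma 3.58.1 in R 4.3.3 (trended moderated variances, 5 residual and 5.412 prior degrees of freedom), after 66 control probe sets were left out, with no filter on low values. On simulated data the fit recovered 49% of 2-fold and 87% of 4-fold changes, with 4.23% of its calls false. The simulation changed 100 of 12422 probe sets by each fold, only among brighter ones, with normal noise and no other group difference. In the data 26.2% of probe sets were called and some values lay below 0, so these shares need not hold for this comparison. Gene symbols came from the platform annotation, updated through RefSeq GRCm38.p6: 10833 probe sets had 1 symbol, 396 several and 1193 none.

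The members and the 41 gene lists, with 922 of 1209 genes measured, were chosen with earlier results of these data known. Named genes followed a rule: the 10 largest rises and falls among called probe sets above 0 on all 5 arrays, at least 2-fold and without overlap; for each direction, the 4 with the highest values where the other group lay at or below 0; up to 5 called members of each list by size; and a short list of corneal, tendon, muscle and fat genes. Of the genes that the rule gave, only those judged to matter most were named, and others with large differences were left out. Genes named outside the rule, after their values were seen, were Aldh1a1, Cox6a1, Cox7a2, Cox8a, Cryab, Ctsl, Epyc, Fn1, Fos, Hk1, Hk2, Jun, Krt10, Krt2, Krt5, Ly6d, Myh2, Pecam1, Pgam1, Ptprc, Slc2a1, Slc2a4, Sparc, Taldo1, Tgfb1, Tgfbi, Tjp1, Tnnc1, Tnnt1, Tpm3 and Vim. The alternatives were other pseudocounts (1 and 64), filters, scalings, samples in the fit, a replicate block, the methods' t-test and leaving out each array.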

Additional observations from a re-analysis of the deposited data

How the results depend on the processing

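Of 172 called genes named in the text, 159 kept their call in each of the 18 other limma fits that tested them, and none changed direction. The 13 exceptions are given beside their values. Filters on low values left some of these genes out of a fit. Pecam1 and Slc4a3 were tested in 16 of the other fits. Dach1, Epyc, Fcer1a, Omd, S100a9, Sfn and Tnnc1 were tested in 17. Over the fits without 1 of the 9 arrays, the count of higher probe sets ran from 647 to 1697 and of lower ones from 1023 to 1987, both lowest without a tendon array. The count of lower collagens ran from 6 (without tendon replicate 2) to 10, and that of lower respiratory genes from 19 to 40 (19 and 22 without tendon replicates 2 and 1). With a pseudocount of 64, 550 probe sets were at least 2-fold higher and 754 lower. The methods' t-test, with a fold of at least 2 and a difference of at least 100, gave 459 higher and 850 lower probe sets, and 95 and 556 after Benjamini-Hochberg adjustment; 1303 of its calls were limma's too. Trimmed mean scaling, which shifted the median difference to 0.05, moved the share of calls that were higher from 44.4% to 50.9%. With the replicate number as a block, 1658 probe sets were higher and 1867 lower. Whether the numbers pair the samples could not be decided. Deviations of cornea and tendon arrays from their group means correlated at -0.06 to 0.06. With 2 tendon arrays these values mirror each other by construction. Of uncalled genes, the log2 differences of 4 crossed 0 over the fits that left out 1 array: Kera ran from -0.43 to 0.088, Cox8a from -0.13 to 0.39, Cox7a2 from -0.069 to 0.18 and Krt5 from -0.47 to 0.042. With the block, Kera was at 0.088 and Cox8a at -0.13. The cause of these shifts was not tested.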

Other observations

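Some probe sets gave readings that stand out from the genes around them. On the tendon arrays, Dach1 read 1823 and 2055 and Fcer1a, the mast cell IgE receptor, read 1429.8 and 897 against -23.6, 15.3 and -37.3 in cornea (adjusted p = 0.000165), while most other mast cell genes were not called. S100a9, a calcium-binding protein of neutrophils and inflamed epithelium, read 21.7, 160.3 and 5.56 in cornea and 1519 and 1616 in tendon (30.2-fold lower, log2 -4.92, or -5.79 and -4.28 without cornea replicates 2 and 3, adjusted p = 0.000250), while its dimer partner was not called. Slc4a3, an anion exchanger, read -823, -609 and -404 in cornea and 64.4 and 77.7 in tendon.

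Values below 0 carried some calls. Of all probe sets, 136 were at or below 0 on both tendon arrays, and 73 of these were called higher in cornea, while 33 were at or below 0 on all 3 cornea arrays, and 26 of these were called lower. Another 17, not in these counts, were at or below 0 on all 5 arrays. On both tendon arrays 39 probe sets lay below -100, and 21 of these were called, among them Tnnc1 and Pecam1. The sources used here do not say how such readings relate to the level of RNA.

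Of 2073 genes with several probe sets, 33 had probe sets called in opposite directions. Ly6d is one, and Crygd another, whose dimmer probe set read 166, 147 and 239 in cornea and 2067 and 1594 in tendon (adjusted p = 2.89e-06), opposite to the brighter one. Tpm3, a slow tropomyosin gene, also had 1 probe set called in each direction. Some called genes had a further probe set that was not called, among them Ckm, Fmod, Aldh1a1, Crybb2, Cryab and Hk2.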
